A study of Mus musculus with 23 samples.

Results

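The respiratory chain genes encoded in the nucleus were followed across mouse ES cells, iPS cells and embryos in which the RNA-binding protein LIN28A, its paralog LIN28B or both had been depleted, or in which let-7 microRNA had been induced. Members were taken by gene name: names that start with Nduf and one of the letters a, b, c, s or v and a number, the names Sdha to Sdhd, and names that start with Uqcr, Cox4 to Cox8 or Atp5, without names that end in -ps and a number, and with a mean of at least 1 TPM, a unit that scales transcript levels to a fixed total per library, in the table used. Of 89 matching names, 4 were left out by their ending and 3 (Cox8b, Cox8c and Ndufs3) stayed under 1 TPM in every table. The ES table held 82 members of 16020 genes at that level, the iPS table held 80 of 17557 (without Cox4i2 and Cox6a2) and the embryo table held 80 of 14875 (without Ndufa4l2 and Cox6a2). By name, 36 of the ES members belonged to complex I, 4 to complex II, 8 to complex III, 16 to complex IV and 18 to complex V. The name rule is not a census of subunits: it takes in Atp5l2-ps, an annotated processed pseudogene, and Atp5sl, which the GENCODE annotation calls Dmac2 and which is a complex I assembly factor in human cells, and it leaves out subunits such as Cyc1 and Ndufab1.

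RNA of 23 libraries was sequenced. The cell libraries were made from fragmented poly(A) RNA. The embryo libraries were made from cDNA of whole embryos that was amplified first. Embryo and cell libraries therefore differ in method as well as in cell type, and these cannot be told apart. The ES libraries were wild type, Lin28a-null and Lin28b-null, and the ilet7 line, in which doxycycline induces a let-7 transgene, without doxycycline and after 3 days with it, with 3 libraries each. The iPS libraries were 3 of wild-type cells and 3 of cells labelled as lacking Lin28a and Lin28b (double knockout), and the C57BL/6J embryos were 1 pool from zygotes injected with a Lin28 siRNA pool (siLin28) and 1 pool injected with a non-targeting siRNA. ES and iPS cells grew on fibroblast feeders in LIF/2i medium. The feeders were depleted before RNA was taken, but fibroblast markers were still found in every ES and iPS library, as given below. The knockout cells were derived as lines of their own, so a knockout and its line cannot be told apart. The doxycycline comparison is within 1 line, and no line without the let-7 transgene was treated. Nothing in the labels says that replicates were separate cultures, so p-values measure the spread between these libraries, which may be technical.

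The respiratory chain passes electrons from NADH, through complex I (NADH dehydrogenase), and from succinate, through complex II (succinate dehydrogenase), to ubiquinone. Complex III (cytochrome bc1) hands them to cytochrome c, and complex IV (cytochrome c oxidase) to oxygen, and complex V (ATP synthase) makes ATP with the proton gradient that complexes I, III and IV build. Complexes I, III, IV and V combine nuclear subunits, made in the cytosol and imported, with a few subunits encoded in mitochondrial DNA, whereas complex II is encoded in the nucleus alone. LIN28 proteins block the maturation of let-7 microRNAs and also bind many mRNAs.

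The results below turn on 5 members. Ndufs5 and Cox7b2 fell in both ES knockouts, less firmly for Cox7b2 in Lin28a-null cells, as given below. Ndufa9 changed in opposite directions in these knockouts, and Uqcrh in opposite directions between comparisons. Atp5g2 was chosen for its share of the subunit c genes. The promoters of these members are shown first. Each runs 5′ to 3′ on the gene's strand from 250 bases before to 50 after the start, from RefSeq on GRCm38.p6, with motif matches in capitals. The motifs searched, on both strands, were GCGCATGCG for NRF1, CCGGAAG for ETS factors such as GABPA, and AAGATGGCG for YY1. The windows are Ndufs5 on the minus strand at chr4:123718137-123718436, Ndufa9 on the minus strand at chr6:126849095-126849394, Uqcrh on the minus strand at chr4:116075021-116075320, Atp5g2 on the minus strand at chr15:102670998-102671297 and Cox7b2 on the minus strand at chr5:71548156-71548455.
Ndufs5: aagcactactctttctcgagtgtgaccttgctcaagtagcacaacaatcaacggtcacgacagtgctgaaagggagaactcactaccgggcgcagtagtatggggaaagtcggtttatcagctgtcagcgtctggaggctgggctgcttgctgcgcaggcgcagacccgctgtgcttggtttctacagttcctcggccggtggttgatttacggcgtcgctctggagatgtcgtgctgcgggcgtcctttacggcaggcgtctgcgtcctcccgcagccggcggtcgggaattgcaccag
Ndufa9: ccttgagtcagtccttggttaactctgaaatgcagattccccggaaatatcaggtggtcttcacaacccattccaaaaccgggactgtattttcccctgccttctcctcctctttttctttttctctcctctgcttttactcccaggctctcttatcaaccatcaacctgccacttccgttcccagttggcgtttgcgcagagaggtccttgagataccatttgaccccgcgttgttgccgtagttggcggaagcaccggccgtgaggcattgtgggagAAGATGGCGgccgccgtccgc
Uqcrh: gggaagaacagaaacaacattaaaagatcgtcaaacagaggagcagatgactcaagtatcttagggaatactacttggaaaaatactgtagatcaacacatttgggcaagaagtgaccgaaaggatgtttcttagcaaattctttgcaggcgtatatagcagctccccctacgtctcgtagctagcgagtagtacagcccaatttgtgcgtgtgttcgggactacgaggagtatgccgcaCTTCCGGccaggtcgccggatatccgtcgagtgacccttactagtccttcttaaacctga
Atp5g2: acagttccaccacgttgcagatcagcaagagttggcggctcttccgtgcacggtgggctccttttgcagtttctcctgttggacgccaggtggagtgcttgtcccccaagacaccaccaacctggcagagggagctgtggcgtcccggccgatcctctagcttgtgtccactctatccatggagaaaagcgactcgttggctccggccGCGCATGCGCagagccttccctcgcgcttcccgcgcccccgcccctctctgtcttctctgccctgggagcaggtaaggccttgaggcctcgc
Cox7b2: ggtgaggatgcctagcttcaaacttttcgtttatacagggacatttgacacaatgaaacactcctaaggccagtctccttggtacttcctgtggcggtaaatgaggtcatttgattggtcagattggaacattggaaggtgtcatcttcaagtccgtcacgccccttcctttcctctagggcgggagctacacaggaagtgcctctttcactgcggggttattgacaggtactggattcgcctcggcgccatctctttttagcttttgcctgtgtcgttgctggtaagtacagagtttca
The Ndufa9 window held the YY1 motif from base 280, inside the transcribed stretch. The Uqcrh window held the ETS motif from base 241, and the Atp5g2 window held the NRF1 motif from bases 209 and 210, once on each strand with the matches overlapping. The Ndufs5 and Cox7b2 windows held none of these letter strings.

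A promoter window was found for 67 of the 82 ES members. The NRF1 motif was in 8 of them (11.9%), beside 1.95% of the windows of all 27025 genes. The ETS motif was in 15 members (22.4%, beside 9.93% of all windows) and the YY1 motif in 8 (11.9%, beside 1.64%). At least 1 of these motifs was in 26 members (38.8%, beside 12.7%). A match describes the letters of the window and is not a binding site.

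The targeted genes were measured first. Lin28a was 31.5, 61.2 and 32.1 TPM in wild-type and 14.6, 21 and 15.8 TPM in Lin28a-null ES cells, and was highest, at 66.6 to 81.0 TPM, in the libraries labelled Lin28b-null. Lin28b mRNA was 3.64 to 5.18 TPM in wild-type ES cells and 12.6 to 13.8 TPM in the libraries labelled Lin28b-null, so this mRNA goes against that label, and Lin28b-null stands below for the label alone. In iPS cells Lin28a was 16.0 to 36.2 TPM in wild type and 9.51 to 11.6 TPM in double knockout, while Lin28b was 2.17 to 4.14 and 10.3 to 11.6 TPM. Lin28b mRNA thus also goes against the double knockout label, which likewise stands below for the label alone. Lin28a mRNA was lower but still present in Lin28a-null and double knockout cells. The level of an mRNA does not show the lesion in its gene, so these values do not decide whether a gene was knocked out. After doxycycline Lin28a, itself a let-7 target, was 6.26 to 7.33 TPM, below the 20.4 to 24.9 TPM of the ilet7 control. It was 15.9 TPM in the control and 3.03 TPM in the siLin28 embryo pool. The 6 pluripotency markers were present in every ES and iPS library, summing to 4329 to 5864 TPM in ES and 3115 to 3422 TPM in iPS libraries. None of the 12 fibroblast markers was at 0 in any of these libraries, and they summed to 1158 to 4553 TPM in ES and 2259 to 4852 TPM in iPS libraries. Trophectoderm markers summed to 1521 and 1167 TPM in the embryo pools.

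In wild-type ES cells the members together made up 2.09% of the library (range 2.04 to 2.17%, n = 3). Complex V held the highest sum, 6918 ± 406 TPM (SD, n = 3), followed by complex IV with 5626 ± 107, complex I with 5512 ± 175, complex III with 1975 ± 161 and complex II with 834 ± 41.5 TPM. The sums of complexes I and IV overlapped between libraries, and the others were apart. Per gene, the median of the ES means was 139 TPM for complex I, 213 for complex II, 229 for complex III, 285 for complex IV and 269 for complex V. Atp5b, the catalytic beta subunit of ATP synthase, was the most abundant member in the ES table with a mean of 2028 TPM. It was followed by Cox5a and Cox8a, small structural subunits of complex IV, with 869 and 857 TPM.

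The highest members of complex I were Ndufa7 with a mean of 432 TPM and Ndufa4 with 310.2 TPM, the latter now assigned to complex IV by biochemistry. In complex II they were the membrane anchor Sdhd (281 TPM) and the catalytic flavoprotein Sdha (226 TPM), and in complex III Uqcrb (503 TPM) and Uqcr10 (391.9 TPM). Over the 76 to 78 members above 10 TPM, the median coefficient of variation between libraries was 5.07 to 7.34% in ES groups, with single members up to 99.2% (Atp5a1 in ilet7 control cells). It was 13.9% in wild-type and 7.26% in double knockout iPS cells.

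**Figure D1:**
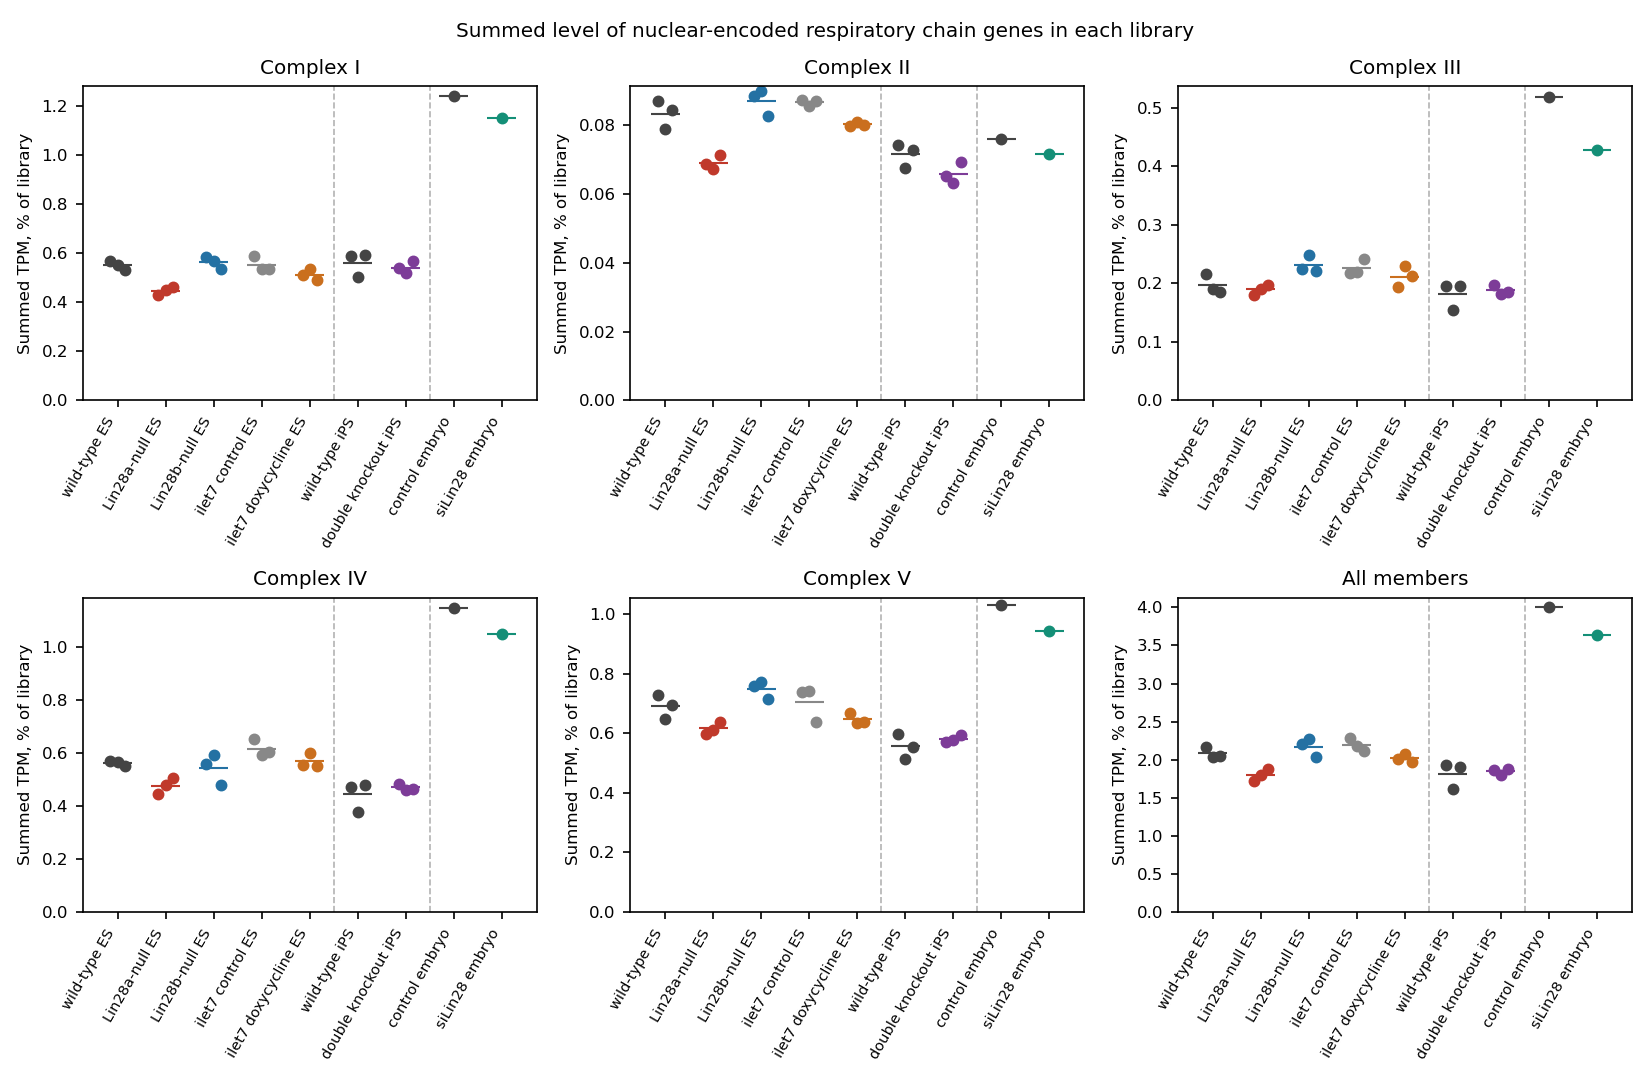
Summed TPM of the members of each complex, and of all members, as a percent of the library on axes from 0, with a point for each library and a line for the group mean (1 pool for each embryo group). The complex I sums of Lin28a-null ES cells lie at 0.428 to 0.462%, below all 3 wild-type ES libraries at 0.533 to 0.568%. The embryo pools, made by another library method, lie above the cell libraries in complexes I, III, IV and V.

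Lin28a-null ES cells held less of these mRNAs. All members together made up 1.8% of the library (1.72 to 1.88%), below every wild-type ES library. The complex I sum was 4459 ± 170 TPM against 5512 ± 175 TPM, complex II 690 ± 20.7 against 834 ± 41.5 TPM, complex IV 4763 ± 311 against 5626 ± 107 TPM, and complex V 6158 ± 207 against 6918 ± 406 TPM (SD, n = 3 each). In these 4 complexes no Lin28a-null library reached a wild-type one, while the complex III sums, 1896 ± 79.3 and 1975 ± 161 TPM, overlapped.

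By gene, 35 of the 81 members tested fell and 1 rose in Lin28a-null ES cells (limma, Benjamini-Hochberg adjusted p under 0.05), where 17.8% of all 16060 genes tested fell and 20.4% rose. The median log2 change was -0.21 over the members and 0.02 over all genes, and 70 members against 48.2% of all genes had a change below 0. The libraries of both groups did not overlap for 48 members that were lower and 4 that were higher, beside 25.5% and 27.7% of all genes. Members are abundant, and among all genes averaging 50 TPM or more, a background chosen after seeing the data, 32 of 74 members fell where 22% of all 4492 such genes fell and 19.6% rose. The fall covered 18 of 36 genes of complex I, 3 of 4 of complex II, 2 of 8 of complex III, 6 of 15 of complex IV and 6 of 18 of complex V.

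Ndufs5, on the intermembrane space side of its membrane arm, was 111, 108 and 104 TPM in wild-type and 38.4, 43.8 and 38.5 TPM in Lin28a-null ES cells. The groups lay far apart, at -1.40 ± 0.0795 on the log2 scale (SE, adjusted p = 7.14e-05 in limma). Ndufa6, an LYR-motif protein of the matrix arm, was 228, 210 and 249 TPM in wild-type and 126, 120 and 126 TPM in Lin28a-null cells, also without overlap (log2 change -0.88 ± 0.0764, adjusted p = 0.000365). Ndufa7 was 514, 562 and 469 TPM against 308, 318 and 339 TPM (-0.67 ± 0.0804, adjusted p = 0.00114). Ndufa4l2, a hypoxia-induced paralog of Ndufa4, was 40.6, 22.6 and 43.9 TPM against 19.0, 14.3 and 22.1 TPM, barely apart, and its call (-0.88 ± 0.268, adjusted p = 0.0377) was lost in 7 of 14 alternative analyses. Of the core subunits, Ndufs7 and Ndufs8, which hold iron-sulfur clusters near the ubiquinone site, and Ndufv1 and Ndufv2 of the NADH-oxidising module were also among those that fell, with the call of Ndufv1 lost in 8 of 14 alternatives. Ndufs1, which carries iron-sulfur clusters of that module, was the 1 member that rose: it was 155, 160 and 155 TPM in wild-type and 175, 207 and 181 TPM in Lin28a-null cells (0.26 ± 0.0771, adjusted p = 0.0352), a call lost in 8 of 14 alternative analyses. The median change of all genes on chromosome 1, where Ndufs1 lies, was 0.19, whereas it was -0.08 to 0.08 on the other 19 chromosomes. The part of that shift in the value of Ndufs1 was not tested.

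In complex II the iron-sulfur subunit Sdhb (log2 change -0.41) and both anchors fell, Sdhd by 0.32 and Sdhc by 0.29 on the log2 scale, and the call of Sdhd was lost in 6 of 14 alternatives. Sdha was 229, 204 and 227 TPM in wild-type and 208, 196 and 215 TPM in Lin28a-null cells, and the groups overlapped. In complex III the core protein Uqcrc2 and the small subunit Uqcr10 (-0.33, lost in 6 of 14 alternatives) fell. In complex IV Cox5a was 760, 966 and 908 TPM in wild-type and 643, 653 and 654 TPM in Lin28a-null cells, with no overlap (-0.43 ± 0.0913, adjusted p = 0.0105). In complex V the genes of the alpha, beta and gamma subunits, Atp5a1 (-0.85, scattered between libraries as given below), Atp5b (-0.25) and Atp5c1 (-0.48), were among those that fell. Those of the delta and epsilon subunits of the central stalk, Atp5d (-0.15) and Atp5e (-0.09), did not pass. Atp5a1 was 355, 327 and 346 TPM in wild-type and 279, 197 and 124 TPM in Lin28a-null cells, and its call was lost in 7 of 14 alternatives. Atp5b was 2327, 2044 and 2203 TPM in wild-type and 1792, 1825 and 1896 TPM in Lin28a-null cells, so its libraries were apart by a small margin, and its call was lost in 9 of 14 alternatives.

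Fibroblast markers moved with this comparison. Of the 12 markers 11 rose in Lin28a-null ES cells, and their sum was 3451 to 4553 TPM against 1499 to 2814 TPM in wild type, with wild-type replicate 2 the highest of its group. In bulk RNA, fewer cells of a type and less RNA per cell cannot be told apart, and the part of feeder RNA in the members' values was not tested. After the median change of its chromosome was taken off each gene, the members' median was -0.22, with 70 members below 0. The count of members that fell was 19 without wild-type replicate 1, 19 without Lin28a-null replicate 2 and 21 without Lin28a-null replicate 1. In these fits 14.5%, 11.9% and 12.5% of all genes fell.

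**Figure D2:**
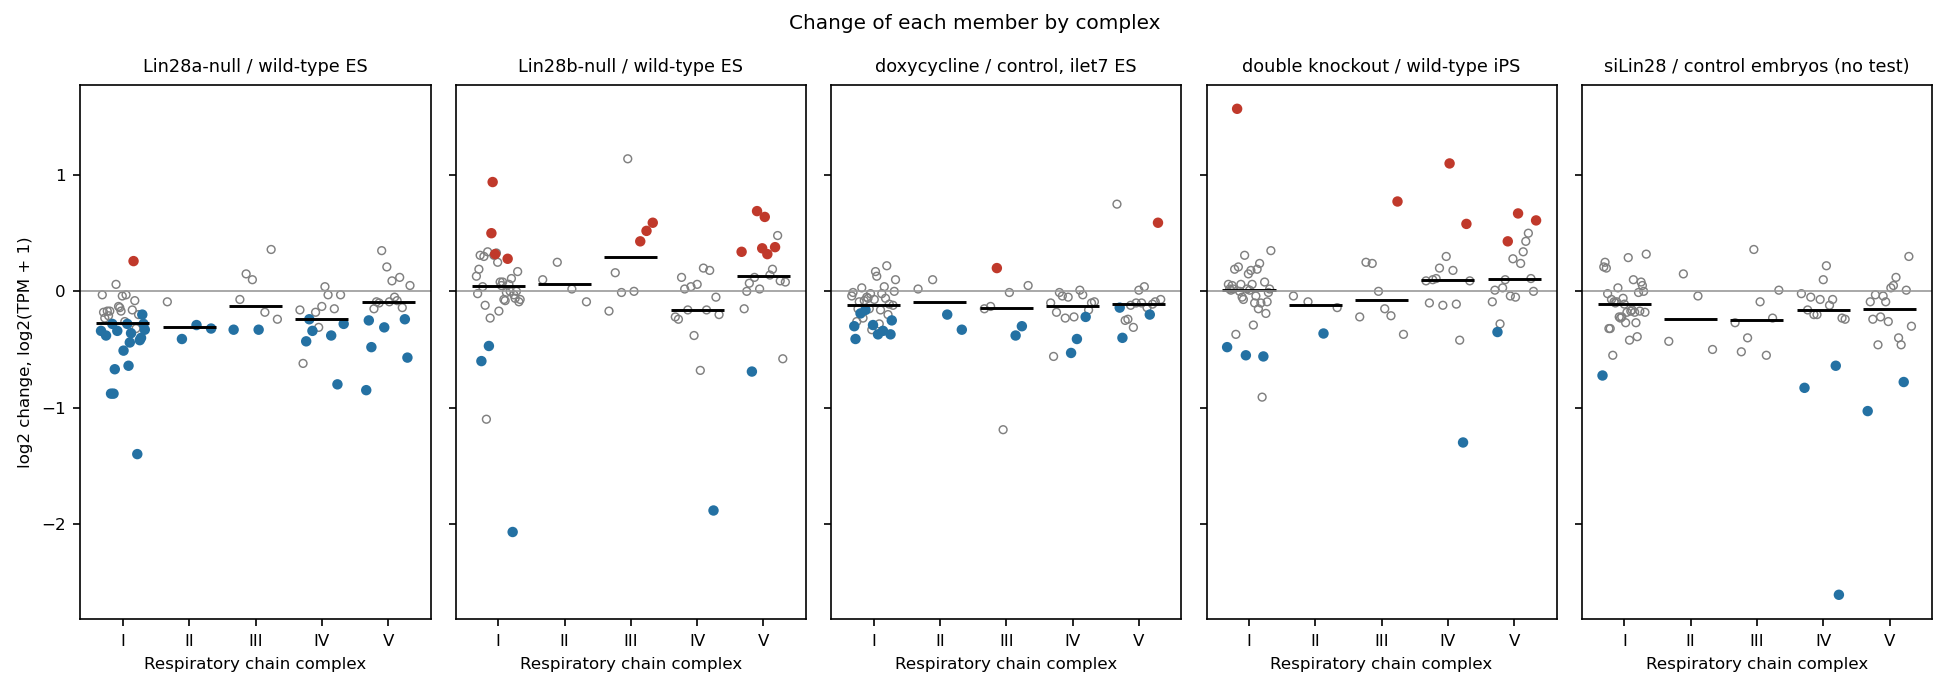
Log2 change of TPM + 1 for every member, by complex, in the 4 comparisons of cells with their own controls and in the embryo pools. Each point is a gene, lines are medians, and filled points are genes called higher (red) or lower (blue), by adjusted p or, in the embryo pools, by 1.5-fold. The Lin28a-null points gather below 0 (median -0.21), those of doxycycline slightly below (-0.12), and those of Lin28b-null ES cells (0.06) and double knockout iPS cells (0.02) lie around 0.

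The libraries labelled Lin28b-null did not show that pattern. These libraries were compared with the same wild-type libraries, so both comparisons share their controls. The members made up 2.17% of the library (2.03 to 2.27%), a range that overlapped wild type, and 13 members rose and 5 fell of 81 tested, beside 13.4% and 15.1% of all genes. The median change was 0.06 over members and -0.01 over all genes. Libraries did not overlap for 21 members that were higher and 9 that were lower (22.1% and 24.2% of all genes). Among genes of at least 50 TPM, 13 of 73 members rose and 4 fell, beside 20.3% and 15.2%. The pluripotency markers, of which 3 of 6 rose, summed to 4351 to 4756 TPM in wild type and 5184 to 5864 TPM in these libraries, and their part in the members' values was not tested. The risers were 4 genes of complex I, 3 of complex III and 6 of complex V. Their count was 6 without wild-type replicate 3, 6 without Lin28b-null replicate 1 and 8 without Lin28b-null replicate 2. In these fits 8.81%, 8.6% and 8.52% of all genes rose.

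Ndufa9, a subunit at the ubiquinone end of complex I, rose most. It was 178, 190 and 178 TPM in wild-type, 361, 356 and 332 TPM in Lin28b-null and 139, 147 and 145 TPM in Lin28a-null ES cells. The 3 groups did not overlap, and Ndufa9 rose in Lin28b-null cells (log2 change 0.94 ± 0.0668, limma adjusted p = 0.000185) and fell in Lin28a-null cells (-0.34 ± 0.0603, adjusted p = 0.00532). The gene overlaps 1700018A23Rik on the opposite strand, and since the counting is not stated to use strand, reads of both cannot be told apart. Ndufs5 went below its level in Lin28a-null cells, to 24.9, 23.8 and 25.9 TPM (-2.07 ± 0.0812 against wild type, adjusted p = 1.62e-05). Ndufa6 (-0.47), the complex I subunit Ndufa13 (-0.60), the ATP synthase epsilon subunit Atp5e (-0.69) and Cox7b2 (-1.88) were the other members that fell.

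In complex V the risers Atp5g1, a gene of the subunit c ring, and Atp5h, subunit d of the peripheral stalk, lie on chromosome 11, as does the complex III subunit Uqcrq. Atp5h was 460, 413 and 423 TPM in wild-type and 680, 667 and 670 TPM in Lin28b-null cells (0.64 ± 0.0638, adjusted p = 0.000693). Atp5g1 was 273, 185 and 266 TPM against 382, 382 and 388 TPM (0.69 ± 0.144, adjusted p = 0.0118). The median change of all genes on chromosome 11 was 0.33 in these libraries, whereas it was -0.09 to 0.09 on the other 19 chromosomes. Of the 5 members on chromosome 11, Atp5g1, Atp5h and Uqcrq (0.59) rose, and Atp5l2-ps (0.48) and Uqcr10 (-0.17) did not pass the test. The part of this chromosome-wide shift in their values was not tested.

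Compared directly, 46 of 81 members were lower and 4 higher in Lin28a-null than in Lin28b-null ES cells, beside 21.1% and 25.8% of all genes. The median difference was -0.27 over members and 0.02 over all genes. At 50 TPM or more 46 of 72 members were lower and 1 higher, beside 29.5% and 22.2% of such genes. The lower members were 23 of 36 in complex I, all 4 in complex II, 5 of 8 in complex III, 4 of 15 in complex IV and 10 of 18 in complex V. Ndufa9 differed most (-1.28 ± 0.0535, adjusted p = 2.04e-05), and the groups were also apart for Ndufa6, with 120 to 126 TPM in Lin28a-null and 163 to 166 TPM in Lin28b-null cells (-0.41 ± 0.0486, adjusted p = 0.000768). Cox7b2 (1.07), Cox7a1 (0.71), Ndufs5 (0.67) and Atp5e (0.60) were the 4 members that were higher in Lin28a-null cells. All 12 fibroblast markers were higher in Lin28a-null cells in this comparison. Of the 6 pluripotency markers 4 were lower and 2 higher, and their sums were 4329 to 4668 TPM in Lin28a-null and 5184 to 5864 TPM in Lin28b-null cells, without overlap. The part of either in the members' values was not tested.

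**Figure D3:**
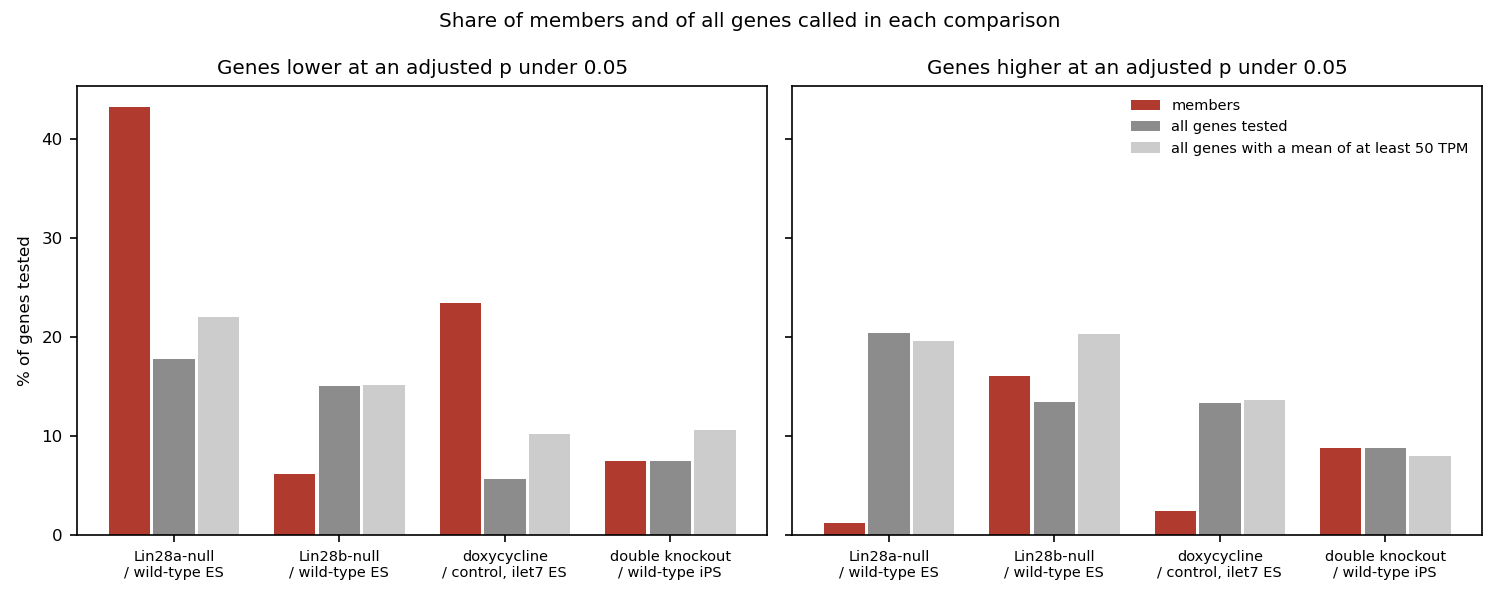
Percent of members, of all genes tested and of all genes of at least 50 TPM that fell (left) or rose (right) at an adjusted p under 0.05 in the 4 comparisons of cells with their own controls. In Lin28a-null ES cells 43.2% of members fell beside 17.8% of all genes, and after doxycycline 23.5% fell beside 5.68%.

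Doxycycline, which induces let-7 in the ilet7 line, went with small changes, most of them downward. Of 81 members tested, 19 fell and 2 rose after 3 days of doxycycline, beside 5.68% and 13.3% of all genes, and the median change was -0.12 over members and 0.06 over all genes. A change below 0 was seen in 65 members and in 40.9% of all genes. Libraries did not overlap for 28 members that were lower and 2 that were higher (14.1% and 26.9% of all genes). Among genes of at least 50 TPM, 18 of 74 members fell and 1 rose, beside 10.2% and 13.6%. The summed share was 2.19% (2.11 to 2.28%) without and 2.02% (1.97 to 2.08%) with doxycycline, with no overlap. The split of all genes depended on the scaling, with 8.18% lower and 9.37% higher after quantile normalization and 9.68% and 10% after median-of-ratios scaling.

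The members that fell were 9 in complex I, 2 in complex II, 2 in complex III, 3 in complex IV and 3 in complex V. Sdhd was 327, 311 and 323 TPM without and 248, 258 and 257 TPM with doxycycline, the groups well apart (log2 change -0.33 ± 0.0395, limma adjusted p = 0.00326). Cox6b2, the testis isoform of a complex IV subunit, was 233, 241 and 221 TPM without and 152, 166 and 162 TPM with doxycycline (-0.53 ± 0.0531, adjusted p = 0.00186), the widest fall among the members that passed the test. Cox7a1, the heart and muscle isoform (-0.41), the complex I subunit Ndufa12 (-0.41) and the Rieske iron-sulfur protein Uqcrfs1 (-0.38) followed, with calls lost in 8, 5 and 3 of 14 alternatives. Atp5s, also called factor B of ATP synthase, rose from 22.3, 22.9 and 22.7 TPM to 35.5, 36.5 and 31.6 TPM (0.59 ± 0.0735, adjusted p = 0.00374), and Uqcrb rose by a small margin (0.20, a call lost in 9 of 14 alternatives). Of 11 fibroblast markers tested 7 rose, with sums of 1158 to 1359 TPM without and 1381 to 1616 TPM with doxycycline. Other marker sums were also higher without overlap: pluripotency markers at 4466 to 4562 against 4986 to 5276 TPM (3 of 6 rose), trophectoderm markers at 38.6 to 45.0 against 52.3 to 57.3 TPM (2 rose and 1 fell of 4 tested) and primitive endoderm markers at 10.1 to 11.1 against 16.5 to 18.5 TPM (1 rose of 4). The part of these cell types in the members' values was not tested. Without doxycycline replicate 1, 3 members fell beside 2.67% of all genes, and without doxycycline replicate 3, 4 fell beside 3%. Without control replicate 1, 2 and 3 the counts were 6, 8 and 10, beside 3.44%, 3.05% and 3.3% of all genes.

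The changes after doxycycline and in Lin28a-null cells, which have separate controls, differed for 14 members by a test of the difference itself. The doxycycline change minus the Lin28a-null change was positive for 12 and negative for 2 (16.2% and 12.1% of all genes). Ndufs5 differed most: it was 103, 94.9 and 109 TPM without and 85.8, 93.7 and 87.1 TPM with doxycycline, and the difference between both log2 changes was 1.2 ± 0.103 (adjusted p = 1.57e-05). Atp5s (1.15), Ndufa6 (0.80) and Ndufs4 (0.54) had the next widest positive differences, which do not by themselves mean a rise after doxycycline. Uqcrh, the hinge protein of complex III, fell after doxycycline (-0.30, lost in 8 of 14 alternatives) and was not called in Lin28a-null cells, with a difference of -0.67 ± 0.152 (adjusted p = 0.00742). The processed pseudogene Gm12854 is annotated on the opposite strand of Uqcrh, and reads of both cannot be told apart.

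In double knockout iPS cells the members as a list showed no clear shift with all libraries included. The summed share was 1.85% (1.8 to 1.88%) beside 1.82% (1.62 to 1.93%) in wild type. Wild-type replicate 2 was the lowest, at 1.62%, and wild-type replicates 1 and 3, at 1.93 and 1.9%, lay above every double knockout library. Of 80 members 6 fell and 7 rose, beside 7.51% and 8.77% of all genes, with a median change of 0.02 over members and 0.04 over all genes. Libraries did not overlap for 12 members that were lower and 12 that were higher (17.2% and 20.7% of all genes). Among genes of at least 50 TPM, 5 of 71 members fell and 5 rose, beside 10.6% and 7.98%. Without wild-type replicate 1 or 3, 2 members fell, beside 5.38% and 4.93% of all genes. Without double knockout replicate 1 or 3, 1 member fell (4.72% and 5.4%), and without replicate 2, 3 fell (5.36%). Without wild-type replicate 2, 6 members fell and 4 rose, beside 4.63% and 5.73% of all genes. The median change in that fit was -0.07 over members and 0.05 over all genes. Without double knockout replicate 1 or 3, 4 members rose (5.56% and 5.39%), and without replicate 2, 3 rose (5.09%). The fibroblast markers summed to 2259 to 3503 TPM in wild type and 3274 to 4852 TPM in double knockout, and 2 of 12 rose.

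The risers were led by isoform genes. Ndufa4l2, the paralog of Ndufa4, was 7.59, 4.15 and 2.87 TPM in wild-type and 15.8, 15.8 and 14.9 TPM in double knockout cells (log2 change 1.57 ± 0.282, limma adjusted p = 0.0114). Cox7a1 was 43.7, 32.2 and 44.5 TPM against 89.7, 69.4 and 104 TPM, with no overlap (1.10 ± 0.182, adjusted p = 0.00827). Uqcrh rose by 0.78 on the log2 scale, a call lost in 8 of 13 alternatives. Ndufs5 was 93.6, 66.6 and 79.2 TPM in wild-type and 48.8, 54.8 and 56.7 TPM in double knockout cells (-0.56 ± 0.135, adjusted p = 0.0325). These groups did not overlap, and the call was lost in 8 of 13 alternatives.

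Ndufb11, a membrane-arm subunit of complex I, was 195, 170 and 200 TPM in wild-type and 121, 127 and 135 TPM in double knockout iPS cells, without overlap (-0.55 ± 0.0892, adjusted p = 0.0075). It lies on chromosome X, as do Ndufa1, an essential small subunit of complex I (-0.48), and Cox7b (-0.42, adjusted p = 0.0514). The median change of all genes on that chromosome was -0.38 in these cells, whereas it was 0.02 to 0.08 on the other 19 chromosomes. The part of the chromosome-wide shift in these values was not tested.

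Only Sdhc and Atp5c1, of all members tested in the 3 comparisons, fell in Lin28a-null ES cells, after doxycycline and in double knockout iPS cells. These comparisons called 17.8%, 5.68% and 7.51% of all genes lower. The share of all genes lower in all 3 was not counted, so this count is not read as a result about the members. Atp5c1, the gamma subunit that turns inside the ATP synthase head, was 544, 553 and 543 TPM in wild-type and 364, 396 and 417 TPM in Lin28a-null ES cells (log2 change -0.48 ± 0.0642, limma adjusted p = 0.00176). It was 630, 580 and 584 TPM without and 479, 433 and 448 TPM with doxycycline (-0.40 ± 0.0533, adjusted p = 0.00464). In iPS cells it was 613, 545 and 567 TPM in wild type and 439, 479 and 435 TPM in double knockout (-0.35 ± 0.0793, adjusted p = 0.026). The groups of each pair were apart, and the libraries labelled Lin28b-null, at 572, 559 and 506 TPM, overlapped wild type. A small nucleolar RNA gene lies inside Atp5c1 on the same strand.

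Sdhc, which anchors succinate dehydrogenase in the membrane, was 117, 112 and 109 TPM in wild-type and 91.3, 94.6 and 90.7 TPM in Lin28a-null ES cells (-0.29 ± 0.0613, adjusted p = 0.0106). It was 118, 109 and 117 TPM without and 98.7, 101 and 98.6 TPM with doxycycline (-0.20 ± 0.049, adjusted p = 0.0322). In iPS cells it was 83.4, 83.6 and 94.2 TPM in wild type and 66.9, 63.1 and 73.4 TPM in double knockout (-0.36 ± 0.0936, adjusted p = 0.0424). The libraries of each pair did not overlap. The iPS call of Sdhc was lost in 9 of 13 alternative analyses and that of Atp5c1 in 7 of 13, and the doxycycline call of Sdhc in 7 of 14, while both Lin28a-null calls held in all 14.

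**Figure D4:**
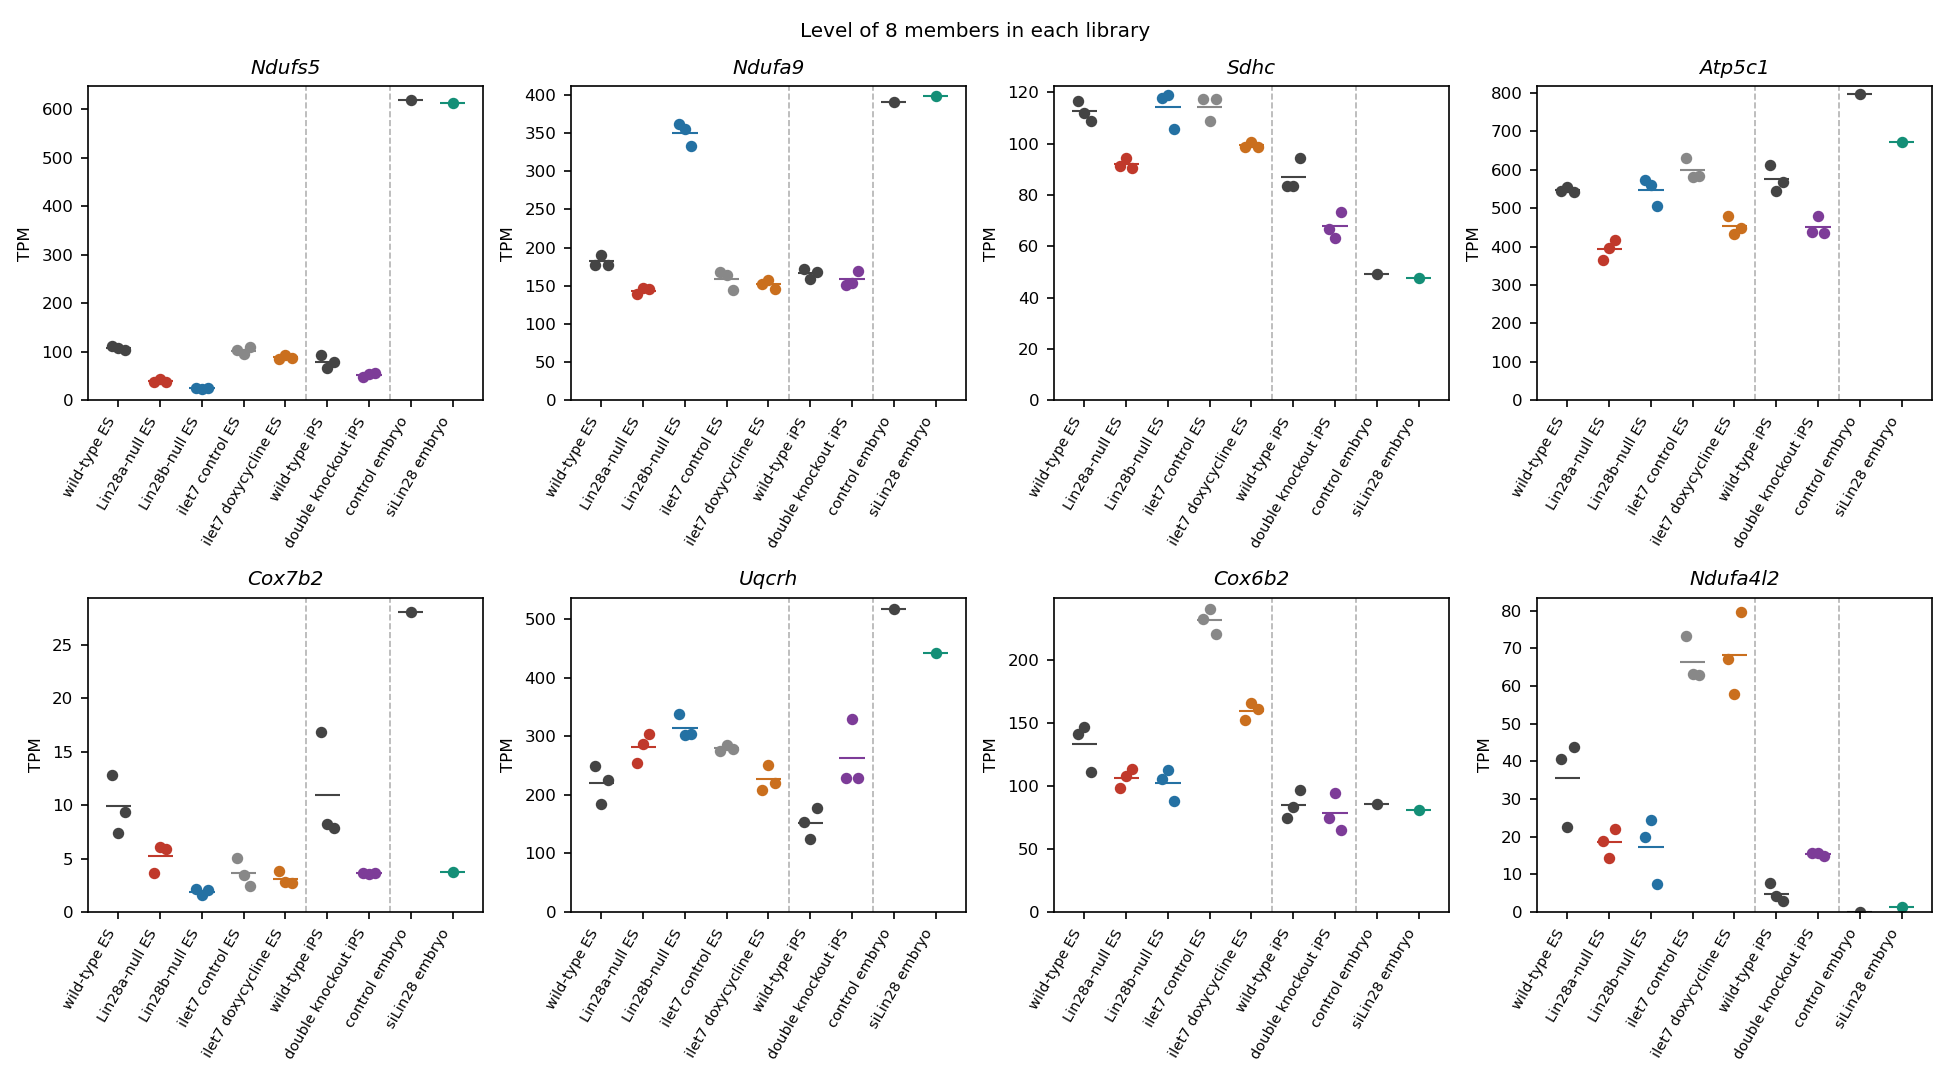
TPM of 8 members in each library on axes from 0, with a point per library and a line for the group mean; dashed lines separate the 3 tables. Ndufs5 is 104 to 111 TPM in wild-type, 38.4 to 43.8 TPM in Lin28a-null and 23.8 to 25.9 TPM in Lin28b-null ES cells, and Ndufa9, among ES cells, is highest in Lin28b-null cells at 332 to 361 TPM.

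In the embryo pools the members made up 4.01% of the control and 3.64% of the siLin28 library, with 1 pool each and so no test. Of 80 members 6 were at least 1.5-fold lower in the siLin28 pool and 0 were at least 1.5-fold higher, beside 16.4% and 18.4% of all genes. The median log2 difference was -0.16 over members and 0.03 over all genes, and 60 members beside 47.6% of all genes lay below 0. Among genes of at least 50 TPM, 2 of 74 members were lower by that fold, beside 7.92% of such genes. Cox7b2, the testis isoform of a complex IV subunit, was 28.1 TPM in the control and 3.78 TPM in the siLin28 pool, the widest difference. Ndufa1 was 487 and 295 TPM and Cox7b 294 and 188 TPM. Atp5a1, the alpha subunit of ATP synthase, was 65.7 and 31.5 TPM, and values of this gene are uncertain, as given below. Atp5l2-ps (40.6 and 23.2 TPM) and Cox4i2, under 5 TPM in both pools, were the other members past that fold. Uqcrc1 (0.36), Ndufv3 (0.32) and Atp5s (0.30) had the highest log2 differences.

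Several subunits are encoded by a pair or trio of genes, and the shares of these genes differed between the 3 tables. The tables were normalized separately, but a share within a family is a ratio inside 1 library. Reads that only 1 gene of a family loses in mapping do not cancel in this ratio. Pseudogenes resembled Atp5g1 (5) and Atp5g2 (4) but not Atp5g3 (0), and only uniquely mapped reads were kept. The embryo libraries were also made by another method. The part of mapping and of method in these shares was not tested. Subunit c of ATP synthase, whose mature protein is the same from each of its 3 genes, came mainly from Atp5g2 and Atp5g3 in wild-type ES cells, with 40.4 ± 3.16% and 39.4 ± 1.16% of the family's TPM (SD, n = 3). Atp5g2 gave 16.7 ± 0.853% in wild-type iPS cells and 9.60% in control embryos. There Atp5g1 gave 46.4%, against 20.1 ± 2.02% in wild-type ES cells. In Lin28a-null ES cells the share of Atp5g2 was 29.2 to 32.6% and in Lin28b-null cells 31.6 to 33.7%, below the 38.3 to 44.1% of wild type, while it was 40.2 ± 1.58% without and 39.9 ± 0.364% with doxycycline.

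Isoforms known from testis and muscle gave the smaller share of their families in every group. Cox6b2 gave 23.7 ± 2.18% of the COX6B mRNA in wild-type ES cells, 33.7 ± 2.27% in ilet7 control cells and 26.6 ± 0.597% after doxycycline, whereas it gave 7.98% in control embryos. Cox7b2 gave 3.40 ± 0.644% of the COX7B mRNA in wild-type, 2.03 ± 0.423% in Lin28a-null and 0.606 ± 0.101% in Lin28b-null ES cells. It gave 2.69 ± 0.948% in wild-type and 1.23 ± 0.0501% in double knockout iPS cells, and 8.74% and 1.97% in control and siLin28 embryos. Its libraries were 12.8, 7.44 and 9.40 TPM in wild-type, 3.68, 6.10 and 5.87 TPM in Lin28a-null and 2.17, 1.55 and 2.02 TPM in Lin28b-null ES cells. These 3 groups did not overlap. The Lin28a-null call of Cox7b2 (-0.80) was lost in 7 of 14 alternatives, while its Lin28b-null call held in all 14. In the iPS cells Cox7b2 was 16.8, 8.26 and 7.85 TPM in wild type and 3.67, 3.52 and 3.64 TPM in double knockout (log2 change -1.30 ± 0.28, limma adjusted p = 0.0218), which also did not overlap. The iPS call was lost in 3 of 13 alternatives.

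Cox7a1 gave 10.8 ± 0.383% of the COX7A mRNA in wild-type and 18.9 ± 2.26% in double knockout iPS cells, and 21.9 ± 3.76% in wild-type ES cells. Ndufa4l2 gave 9.35 ± 2.38% of the summed Ndufa4 and Ndufa4l2 mRNA in wild-type ES cells and 17.4 ± 1.19% in ilet7 control cells. It was listed at 0 in the control embryo pool and at 1.44 TPM in the siLin28 pool. Cox4i2, the lung and hypoxia isoform, and the muscle isoform Cox6a2 stayed under 1% of their families in every group.

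**Figure D5:**
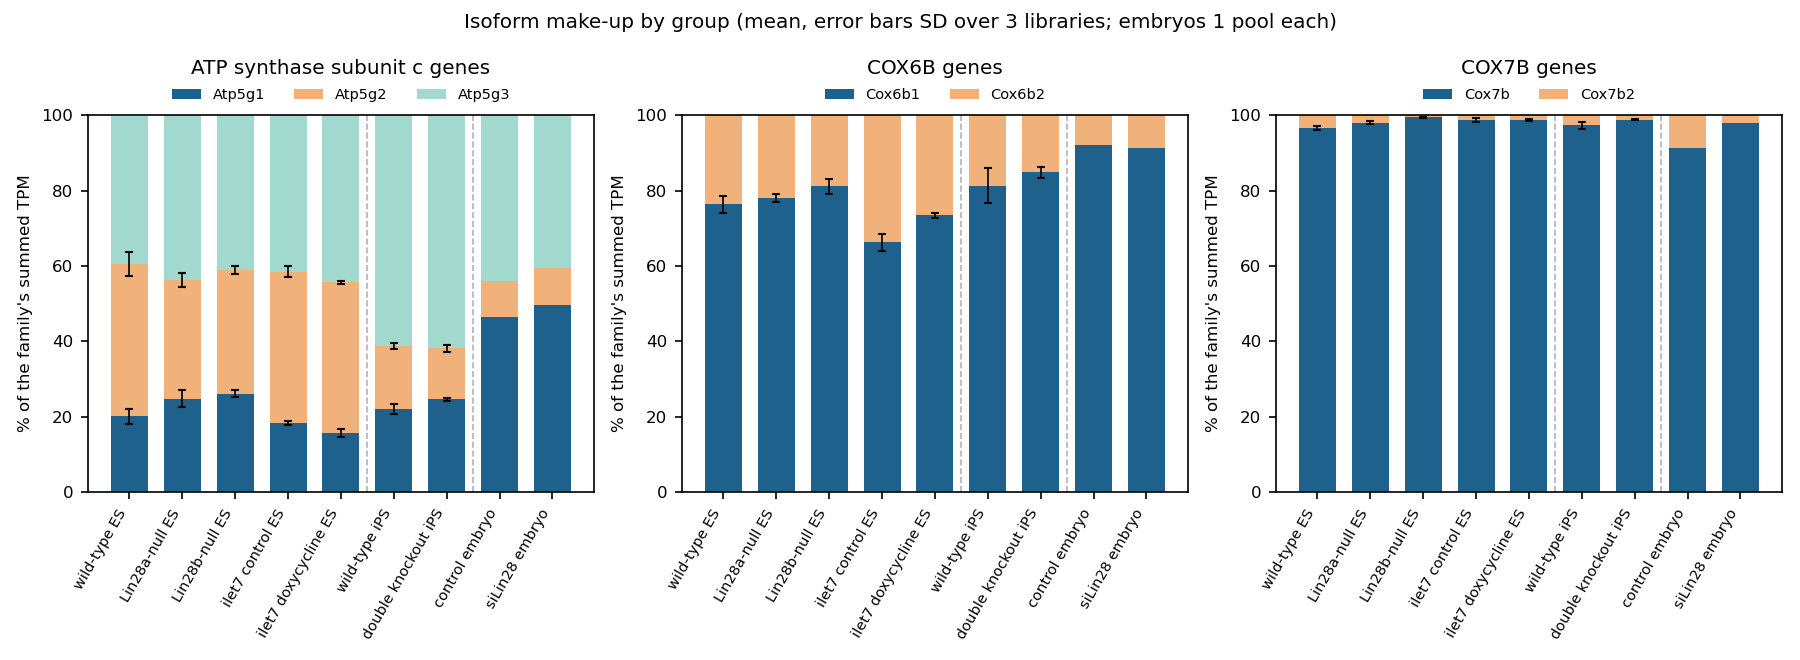
Percent of a family's summed TPM contributed by each of its genes, for subunit c, COX6B and COX7B, as group means in stacked bars from 0 to 100%, with SD over 3 libraries as error bars (1 pool for each embryo group). Atp5g2 gives 40.4% of subunit c mRNA in wild-type ES cells, 16.7% in wild-type iPS cells and 9.60% in control embryos.

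Genes that work with the members were counted from fixed lists, to be read beside the 17.8% of all genes that fell and the 20.4% that rose in Lin28a-null ES cells. In Lin28a-null ES cells 6 of 14 assembly factors of complex I fell (median log2 change -0.34), Ndufaf6 by 0.77 and Timmdc1 by 0.56 on the log2 scale. Of 22 complex IV factors 6 fell and 2 rose (-0.10), of 6 complex III factors 1 fell, of 3 complex V factors 1 fell, while no complex II factor passed the limma test (0 of 4 at an unadjusted p under 0.05). Among subunits outside the name rule 3 of 5 fell: Cyc1, the cytochrome c1 of complex III (-0.30), Ndufab1, the acyl carrier protein (-0.48), and Atpif1, the inhibitor of ATP synthase (-0.59). Of 17 genes of pyruvate dehydrogenase and the citric acid cycle 6 fell (-0.21), most of all Idh2, the mitochondrial NADP isocitrate dehydrogenase (-1.10). Of 13 regulators 4 fell and 3 rose: Nrf1 (-0.23), Esrra (-0.37) and Gabpb1 (-0.40) were among those that fell and Gabpa (0.20) among those that rose.

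Of the 13 mRNAs encoded in mitochondrial DNA 10 rose in Lin28a-null ES cells (median 0.57), beside 20.4% of all genes. The other genes, mt-Co3 (-0.10), mt-Nd3 (1.73) and mt-Nd4 (2.53), did not pass. mt-Co1, the catalytic subunit of complex IV, rose from a mean of 4456 to 5708 TPM (0.36 ± 0.0568, limma adjusted p = 0.00337), and mt-Cytb of complex III from 1518 to 2263 TPM (0.57 ± 0.0698, adjusted p = 0.00124). In Lin28b-null cells 3 of these 13 rose and 1 fell (13.4% and 15.1% of all genes). After doxycycline 2 rose (13.3% of all genes), and in double knockout iPS cells 2 rose (8.77%).

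In Lin28b-null ES cells, where 13.4% of all genes rose and 15.1% fell, 10 of 22 complex IV assembly factors rose (median 0.27). All 5 of these factors that lie on chromosome 11 were among them: Coa3 (0.78), Cox10 (0.50), Cox11 (0.86), Sco1 (0.68) and Taco1 (0.84). Of the complex I factors 2 rose and 2 fell. Of the complex III factors 3 rose, among them Lyrm7 on chromosome 11, and of the complex V factors 1 rose, Atpaf2, also on chromosome 11. The part of the shift of that chromosome in the values of these factors was not tested. Of the regulators 2 rose, and of the citric acid cycle genes 2 rose and 4 fell. No complex II factor and no subunit outside the rule passed the limma test there, with 1 of 4 and 0 of 5 at an unadjusted p under 0.05. After doxycycline, where 5.68% of all genes fell and 13.3% rose, 2 of 14 complex I factors rose and 1 of 6 complex III factors fell. Of 22 complex IV factors 1 rose and 2 fell, and of 13 regulators 1 rose and 1 fell. Of 17 citric acid cycle genes 1, Idh2 (-0.14), fell. No factor of complexes II and V and no subunit outside the rule passed in limma there, with 1 of 4, 0 of 3 and 3 of 5 at an unadjusted p under 0.05. In double knockout iPS cells 4 of 17 citric acid cycle genes fell, among them Pdha1 (-0.68), the E1 alpha subunit of pyruvate dehydrogenase, and Idh3g (-0.50), both on chromosome X. There 2 of 14 complex I factors fell, and 2 of 6 complex III factors and 1 of 21 complex IV factors rose. Of all genes 7.51% fell and 8.77% rose in these cells. No factor of complexes II and V, regulator or subunit outside the rule passed in limma there, with 1 of 4, 2 of 3, 2 of 13 and 1 of 5 at an unadjusted p under 0.05.

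Some members carry values that the annotation or the mapping makes uncertain. Atp5a1 was 335, 787 and 30.1 TPM in ilet7 control and 650, 115 and 517 TPM in doxycycline libraries, and 4.5 to 7.46 TPM in wild-type iPS cells. Uqcrc1, a core protein of complex III, ranged from 7.81 to 426 TPM across the ES libraries and from 3.57 to 4.56 TPM in iPS cells. In the ES table both genes ranged widely within single groups, and leaving them out changed no count of calls by over 1.5 times. Another annotated gene overlapped 36 of the 82 members, 12 of them on the same strand. Among them, Ndufa4l2, Ndufs1 and Ndufb11 are overlapped on the opposite strand by the protein-coding genes Shmt2, Eef1b2 and Rbm10. Reads of both genes of such a pair cannot be told apart. At least 1 pseudogene resembled 31 members at 90% identity or more, most for Atp5l with 13. In Lin28a-null cells the median change was -0.17 over those 31 members, of which 12 fell, and -0.24 over the 50 other members tested, of which 23 fell.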

How the data were processed

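RNA-seq reads were processed by the authors. Base calls were made with CASAVA 1.8, and reads were trimmed with Trimmomatic and FASTX, aligned to mm10 with HISAT2 and cleared of duplicates with Picard. Gene levels of uniquely mapped reads came from StringTie on a GENCODE annotation. The deposited values are TPM per gene in 3 separately normalized tables. TPM keeps no read number, so library depth cannot be read from the files and values carry no interval for counting error. The count-based test of the study was not used here.

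The test was limma (version 3.58.1, under R 4.3.3) on log2(TPM + 1), with a trended prior variance and the 2 groups of each comparison, for genes averaging 1 TPM or more, with Benjamini-Hochberg adjustment over all genes and a threshold of 0.05. Fold changes on this scale understate the change of low genes. The difference of the doxycycline and Lin28a-null changes was tested as an interaction over 4 groups. Embryo pools were described by a 1.5-fold difference. Members and lists were chosen with earlier results of these data known. Genes named in the text are, in each cell comparison, the 3 largest falls and rises among called members without overlap between groups, the 2 most abundant members per complex, the complex II genes, catalytic and core genes, the subunit c genes, tissue or condition isoforms, members called the same way in 3 comparisons and the largest differences of the embryo pools. Others, such as Ndufa13, Ndufs7 or Ndufv3, and the genes of the lists, were named after their values were seen. The fits were also run on simulated data with 200 genes changed and independent noise. Far more genes were called in these comparisons, so that run does not give their error rate. Alternatives were no filter or a minimum of 5 TPM, a pseudocount of 0.1, no variance trend, quantile or median-of-ratios scaling, a single fit of every library in a table, a replicate block and leaving out each library. Coordinates and overlaps came from GENCODE M21 and promoters from RefSeq. Pseudogenes were matched with BLAST+ 2.17.0+.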

Additional observations from a re-analysis of the deposited data

Results flagged for a closer look

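The changes after doxycycline and in Lin28a-null ES cells differed for 14 of 81 members by an interaction test over 4 groups (limma, adjusted p under 0.05). The difference was positive for 14.8% of members and negative for 2.47%, beside 16.2% and 12.1% of all genes. The members therefore did not differ more often than all genes. Given as the doxycycline change minus the Lin28a-null change on the log2 scale, the difference was 1.2 for Ndufs5, 0.80 for Ndufa6, 0.54 for Ndufs4, 0.52 for Ndufa7, 0.45 for Ndufb4, 0.43 for Ndufv3 and 0.27 for Ndufa9 in complex I. It was 0.50 for Sdhb in complex II, 0.32 for Uqcrc2 and -0.67 for Uqcrh in complex III, 0.36 for Cox7a2l, a factor that joins complexes III and IV, and 1.15 for Atp5s, 0.21 for Atp5g2 and -0.67 for Atp5g1 among complex V names.

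Lin28a-null and Lin28b-null ES cells, which share their wild-type controls, differed directly for 50 members. Of these 46 were lower and 4 higher in Lin28a-null cells, beside 21.1% and 25.8% of all genes. Ndufa9 (-1.28) and Atp5a1 (-1.19) fell in Lin28a-null and rose in Lin28b-null cells, and for Atp5a1 the fall was lost in 7 and the rise in 5 of 14 alternative analyses.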

How the results depend on the processing

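The members' medians kept their sign under the alternatives run except in double knockout iPS cells, where 0.02 became -0.03 under median-of-ratios scaling, -0.07 without wild-type replicate 2 and -0.00 without double knockout replicate 3. Of the calls of rule-named genes, 43 of 79 held under all alternatives and 0 reversed. In Lin28a-null ES cells the 35 falls became 21 with no variance trend, and the 1 rise became 0 with no filter, median-of-ratios scaling or no variance trend, 2 with quantile normalization and 3 with all libraries in one fit. In Lin28b-null cells the 13 rises became 6 with no variance trend and the 5 falls 13 in one fit. After doxycycline the 19 falls became 10 with no filter and 6 with no variance trend, the 2 rises became 1 under these, median-of-ratios scaling, one fit and a minimum of 50 TPM, and the median became -0.19 under median-of-ratios scaling. In double knockout iPS cells the 6 falls became 2 and the 7 rises 4, both with no filter and with no variance trend. The 4 members higher in Lin28a-null than in Lin28b-null cells became 1, and the 6 lower in the embryo pools 2, at a minimum of 50 TPM.

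Leaving out 1 library gave 19 to 34 falls, 0 to 1 rises and medians of -0.26 to -0.17 in Lin28a-null cells, where 11.9 to 18.6% of all genes fell. In Lin28b-null cells it gave 5 to 7 falls, 6 to 14 rises and medians of 0.02 to 0.08, where 8.52 to 15.7% of all genes rose. After doxycycline it gave 3 to 18 falls, 1 to 2 rises and medians of -0.16 to -0.07, where 2.67 to 4.12% of all genes fell. In double knockout cells it gave 1 to 6 falls, 3 to 7 rises and medians of -0.07 to 0.08. There 4.63 to 5.4% of all genes fell and 5.09 to 7.73% rose. Between both ES knockouts it gave 29 to 47 lower members (29 without Lin28a-null replicate 1), 4 to 7 higher ones and medians of -0.35 to -0.23, and 10 to 17 members differed between the doxycycline and Lin28a-null changes.

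Same-numbered libraries deviated together with correlations of -0.14 to 0.12, so the numbers were not taken as pairs. With the replicate block 22 members fell and 0 rose in Lin28a-null cells, where 14% of all genes fell. After doxycycline 8 fell and 1 rose, where 2.7% of all genes fell. In Lin28b-null cells 6 fell and 11 rose (12.5% and 10.7% of all genes), and in double knockout cells 4 fell and 5 rose (4.99% and 5.96%). Depth is unknown from TPM, and 3 libraries a group limit precision.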
